A study of Mus musculus with 72 samples.

Results

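The genes described here encode acute phase proteins, which are secreted plasma proteins, most of them made mainly by hepatocytes, that rise during inflammation. They were the serum amyloid A genes Saa1, Saa2, Saa3 and Saa4, the orosomucoid genes Orm1, Orm2 and Orm3, and Hp (haptoglobin), Apcs (serum amyloid P) and Lcn2 (lipocalin 2). Members were found by matching the RefSeq transcript name of each probe to one of these symbols, which gave 11 probes for the 10 genes among 56605 probes on the array, 34566 of which carried a gene symbol. Lcn2 had 2 probes and the other genes had 1 probe each. Where a gene is named without a probe, the value for Lcn2 is that of its brighter probe, A_55_P2070869.

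Female C57BL/6 J mice of 6 to 8 weeks received sham treatment (0 Gy) or 1 of 5 single total-body X-ray doses between 1 and 12 Gy (1, 2, 4, 8 and 12) at 1.05 Gy/min. Liver and lung were analysed 48 h later, with 3 samples per dose and tissue, on 36 one-colour mRNA arrays. All groups share strain, sex and age, and nothing but the dose separates them in the labels. The labels give the samples numbers that liver and lung have in common but do not say that a number stands for one animal, so p-values measure the spread between these samples.

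In the acute phase response, interleukin 6 acts through STAT3, and interleukin 1 and tumour necrosis factor act through NF-kappaB, together with transcription factors of the C/EBP family, to raise transcription of these genes in hepatocytes. Saa1 and Saa2 are the circulating, strongly inducible serum amyloids, Saa3 is also made outside the liver by macrophages, epithelium and adipose tissue, and Saa4 is regarded as the constitutive form. Lipocalin 2 binds bacterial siderophores and is also a protein of neutrophil granules.

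The array files showed the tissues as labelled. All 15 hepatocyte markers were well above background on all 18 liver arrays and all 7 lung epithelium markers on all 18 lung arrays. On liver arrays 3 to 6 of the 7 lung epithelium markers were also well above background. Their summed level was 496 to 4594 intensity units in liver, against 1411690 or more in lung. The share of probes well above background was 46.1 to 54.0% in liver and 54.1 to 64.0% in lung, and no spot was saturated. Arrays lay on slides that followed the dose. In liver, the 0 and 1 Gy samples and samples 3 and 13 of the 2 Gy group shared slide 1, and all others lay on slides 2 and 3. In lung, the 0 and 1 Gy samples lay on slide 3 and all higher doses on slides 4 and 5, so that slide and dose cannot be told apart for 2 Gy and more. The 4 lung arrays of slide 5, which held all 3 samples of 12 Gy and sample 25 of 8 Gy, had 54.1 to 54.8% of probes well above background, against 59.2 to 64.0% on the other lung slides.

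The Saa genes lie together on chromosome 7 and the Orm genes together on chromosome 4 (RefSeq, GRCm38.p6), and the copies are close in sequence. Saa1 lies at chr7:46740497-46743181 and Saa2 at chr7:46751833-46754313, with Saa3 (chr7:46711998-46719615) and Saa4 (chr7:46727992-46732603) beside them. Orm1, Orm3 and Orm2 follow one another at chr4:63344556-63348163, chr4:63356069-63359506 and chr4:63362449-63365877. Hp lies at chr8:109575128-109579172, Apcs at chr1:172893961-172895054 and Lcn2 at chr2:32384637-32387739. Whether the array probes tell Saa1 from Saa2, or one Orm copy from another, was not tested, so values of these copies may share signal.

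RefSeq promoters were given for 8 of the 10 genes, and the 250 bases before the transcript start used by RefSeq's promoter table are shown for 4 of them because these pairs of copies were measured side by side. The Saa1 and Saa2 stretches were identical at 238 of 251 aligned positions, or 94.8%, and those of Orm2 and Orm3 at 218 of 255, or 85.5%. Saa1 against Saa4, by comparison, matched at 42.6% of aligned positions. Sequences run 5′ to 3′ on the strand of the gene, and capitals mark a match to the C/EBP letters given below them. Positions are chr7:46742981-46743230 on the minus strand for Saa1, chr7:46751583-46751832 on the plus strand for Saa2, and chr4:63362199-63362448 and chr4:63355908-63356157 on the plus strand for Orm2 and Orm3. The start used was the first base of the gene given above for Saa2 and Orm2, but lay inside it for Saa1 and Orm3, so that 201 of the 250 bases of Saa1 and 89 of those of Orm3 fall within the gene.
Saa1: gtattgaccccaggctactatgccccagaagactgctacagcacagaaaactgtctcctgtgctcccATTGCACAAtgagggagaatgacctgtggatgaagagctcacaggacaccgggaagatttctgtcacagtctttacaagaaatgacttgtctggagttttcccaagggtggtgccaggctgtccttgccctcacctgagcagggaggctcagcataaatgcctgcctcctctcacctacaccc
Saa2: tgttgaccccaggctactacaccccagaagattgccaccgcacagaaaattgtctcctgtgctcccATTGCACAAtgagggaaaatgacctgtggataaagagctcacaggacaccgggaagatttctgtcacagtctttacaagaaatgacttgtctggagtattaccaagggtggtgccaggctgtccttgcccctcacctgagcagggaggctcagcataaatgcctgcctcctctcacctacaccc
Orm2: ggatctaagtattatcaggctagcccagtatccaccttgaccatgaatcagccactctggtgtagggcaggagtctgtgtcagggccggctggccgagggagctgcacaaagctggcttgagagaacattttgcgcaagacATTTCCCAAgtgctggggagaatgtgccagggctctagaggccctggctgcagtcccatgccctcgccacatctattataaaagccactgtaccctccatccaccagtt
Orm3: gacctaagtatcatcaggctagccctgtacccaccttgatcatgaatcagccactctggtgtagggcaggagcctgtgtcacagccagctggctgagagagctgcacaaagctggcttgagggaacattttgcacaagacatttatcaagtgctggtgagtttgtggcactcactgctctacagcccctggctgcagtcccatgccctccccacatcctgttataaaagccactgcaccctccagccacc

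Motifs were sought on both strands in the 250 bases before and 50 bases after that start. For Saa3 the start used also lay inside the gene, and all 250 bases before it fall within the gene. The C/EBP letters TTNNGNAAT matched 3 of the 8 member promoters, against 11.46% of all 32851 promoters. Saa1 and Saa2 carried the same match 183 and 184 bases before the start, and Orm2 carried one 109 bases before the start. The STAT3 letters TTCNNNGAA matched the promoter of Apcs alone among the 8, against 8.30% of all promoters. The NF-kappaB letters GGGANTTNC matched none of the 8, against 4.26% of all promoters. These are matches of letters in a short window and not measured binding sites.

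Levels below are log2 of the quantile-normalized, background-corrected intensity within a tissue. A difference was called where the log2 fold change exceeded 1 in either direction and the adjusted p was below 0.05, in a limma fit over every probe tested in that tissue (38362 in liver, 43979 in lung). Levels of different probes are not compared with each other. A lower level in a tissue sample cannot tell fewer cells of a type from less RNA per cell.

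Saa1 and Saa2 rose most in liver and were near their highest level from 2 Gy on. Saa1 was at 14.27, 13.78 and 13.77 in the 3 sham livers. At 1 Gy it was at 16.70, 14.81 and 16.90, and at 2 Gy at 18.30, 18.08 and 18.34. All 15 irradiated livers lay above the highest sham liver. At 4 Gy Saa1 was at 18.0003, 17.57 and 17.78, at 8 Gy at 17.9991, 17.76 and 17.84, and at 12 Gy at 17.63, 18.29 and 17.43. The log2 fold change against 0 Gy was 4.30 (SE 0.40, adjusted p = 0.000177) at 2 Gy, a 19.7-fold difference, and 3.84, 3.93 and 3.84 at 4, 8 and 12 Gy, each called. At 1 Gy it was 2.19 (SE 0.40, adjusted p = 0.0889), which missed the threshold, and sample 12 stood well below the other 2 samples of that dose. Without sample 12 the 1 Gy change was 2.86 with adjusted p = 0.000196.

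Saa2, a close copy of Saa1, had a like course in liver. It was at 13.59, 13.14 and 13.14 in sham livers, at 16.18, 14.00 and 16.39 at 1 Gy, and at 17.81, 17.59 and 17.27 at 2 Gy. Its change was 4.27 (SE 0.45, adjusted p = 0.000436) at 2 Gy and 3.99, 3.91 and 3.83 at 4, 8 and 12 Gy, all called. At 1 Gy it was 2.23 (adjusted p = 0.14), and 2.99 without sample 12 (adjusted p = 0.000196). All 15 irradiated livers again lay above the sham livers. The 2 Gy livers of samples 3 and 13, on the same slide as the sham livers, were at 17.81 and 17.59 for Saa2 and at 18.30 and 18.08 for Saa1. With the slide as a fixed term, Saa1 and Saa2 kept their calls at 2 and 8 Gy but not at 4 Gy (adjusted p = 0.0972 and 0.0762) or 12 Gy (adjusted p = 0.0936 and 0.0778), with changes of 3.54 to 4.42.

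Neighbouring doses from 2 Gy upward were not called apart for either gene. Saa1 differed by -0.46 between 4 and 2 Gy (95% interval -1.31 to 0.40), by 0.08 between 8 and 4 Gy (-0.77 to 0.94) and by -0.08 between 12 and 8 Gy (-0.94 to 0.78). The step from 1 to 2 Gy was 2.10 (adjusted p = 0.143) for Saa1 and 2.03 (adjusted p = 0.203) for Saa2, and was not called. The linear trend, expressed per 12 Gy on the log2 scale, was 2.48 for Saa1 (SE 0.85, adjusted p = 0.0755) and 2.45 for Saa2 (SE 0.88, adjusted p = 0.0881) and was not called either.

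**Figure D1:**
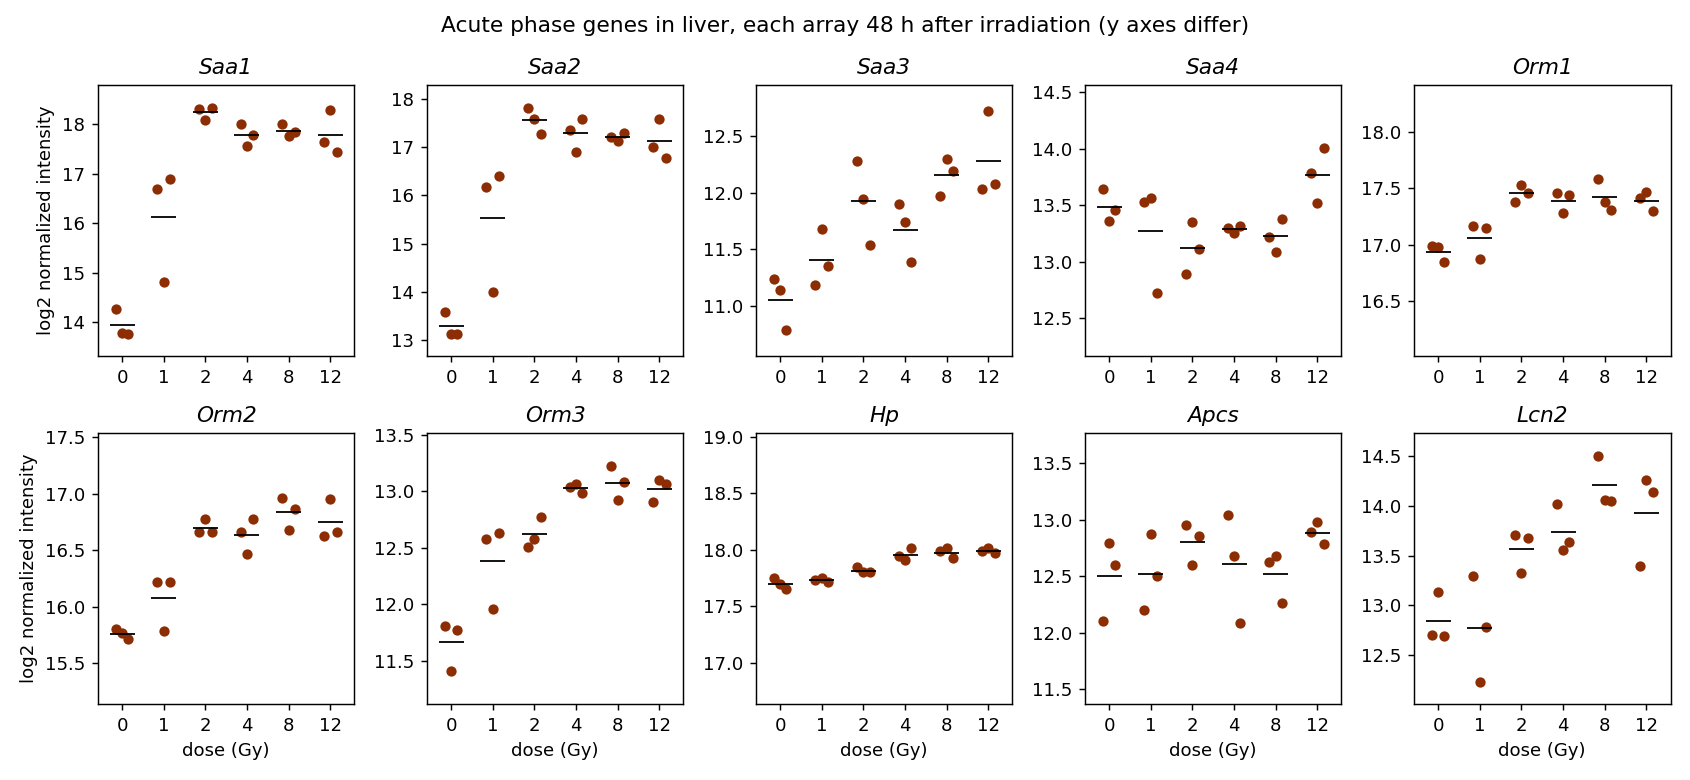
Log2 normalized intensity (y axis, scale differs between panels) of the 10 acute phase genes in liver against dose in Gy (x axis). Points are the 3 samples per dose, the line is their mean, and Saa1 lies between 14.81 and 16.90 at 1 Gy and between 17.43 and 18.34 from 2 Gy on.

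Saa3 changed less in liver than Saa1 and Saa2, and was called at 8 and 12 Gy only. In 14 of 15 irradiated livers, with all those at 2 and 4 Gy among them, it was above the highest sham liver. It was at 11.24, 11.14 and 10.79 in sham livers, at 11.97, 12.30 and 12.19 at 8 Gy, and at 12.04, 12.72 and 12.07 at 12 Gy. The changes of 1.101 (SE 0.23, adjusted p = 0.00835) and 1.22 (SE 0.23, adjusted p = 0.00457) were called, while those at 1, 2 and 4 Gy were 0.35, 0.87 and 0.62 and were not. Without sample 21 of the sham group the 8 Gy change was 0.97 (adjusted p = 0.0393). Its trend of 1.04 over 12 Gy (SE 0.22, adjusted p = 0.00463) was called, and was 0.923 to 0.9996 and not called without sample 11 or 21 of the sham group or sample 16 of the 12 Gy group. Saa4 did not follow the other serum amyloids. Its livers ranged from 12.72 to 14.01, its changes lay between -0.36 and 0.28, and 2 of 15 irradiated livers were above the highest sham liver.

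The orosomucoids, plasma carriers of lipophilic compounds, lay in the order Orm3, Orm2 and Orm1 by size of the liver change. Orm3 was at 11.81, 11.41 and 11.77 in sham livers, at 13.04, 13.07 and 12.98 at 4 Gy, and at 12.90, 13.10 and 13.06 at 12 Gy. All 15 irradiated livers were above the sham livers. At 2 Gy the change was 0.95 (adjusted p = 0.0204), and 1.01 to 1.03 and called without sample 1 or 21 of the sham group or sample 3. Its changes of 1.37, 1.41 and 1.36 at 4, 8 and 12 Gy (SE 0.17, adjusted p = 0.000541, 0.000228 and 0.000224) were called, as was the trend of 1.06 (adjusted p = 0.00998). The trend was 0.91 to 0.98 and not called without any one of the sham samples.

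Orm2 was at 15.80, 15.77 and 15.71 in sham livers and at 16.66, 16.77 and 16.66 at 2 Gy, with a change of 0.94 (SE 0.14, adjusted p = 0.00657) that stayed under the fold threshold. At 8 Gy it reached 1.07 (adjusted p = 0.000427) and was called, and at 12 Gy it was 0.98 (adjusted p = 0.00065). The 12 Gy change was 1.00, 1.04 and 1.03, and called, without sample 1 of the sham group or sample 6 or 26 of its own dose. Orm1 differed by 0.45 to 0.52 at 2 to 12 Gy, about 1.4-fold, with adjusted p of 0.0632 at 2 Gy and 0.0151 to 0.0406 at the higher doses, and was not called at any dose. In 14 of 15 irradiated livers both Orm1 and Orm2 were above the highest sham liver, and sample 12 was at 16.87 for Orm1 and at 15.78 for Orm2.

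Hp, which binds free haemoglobin, was high in every liver, from 17.65 to 18.01. It differed by 0.28 at 8 Gy (SE 0.08, adjusted p = 0.0417) and 0.29 at 12 Gy (adjusted p = 0.0391), far under the fold threshold. The 12 livers at 2, 4, 8 and 12 Gy all lay above the sham livers. Apcs, a pentraxin and acute phase reactant of mice, ranged from 12.09 to 13.04 with changes of 0.02 to 0.39, none called (adjusted p of 0.407 or more).

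Lcn2 was at 12.70, 13.14 and 12.70 in sham livers. It was at 13.30, 12.24 and 12.78 at 1 Gy, overlapping the sham livers, at 14.02, 13.56 and 13.64 at 4 Gy, and at 14.50, 14.06 and 14.05 at 8 Gy. The changes of 1.36 at 8 Gy (SE 0.27, adjusted p = 0.00688) and 1.08 at 12 Gy (adjusted p = 0.0244) were called. The 12 Gy change was 0.92 to 1.01 and not called (adjusted p of 0.083 to 0.0929) without sample 1 or 21 of the sham group or sample 16 or 26. The dimmer probe, A_51_P510156, was called at 4, 8 and 12 Gy with 1.38, 1.49 and 1.57 (adjusted p = 0.0227, 0.00762 and 0.00572), and its 4 Gy call was lost (1.18 to 1.51, adjusted p of 0.0515 to 0.104) without any one sham or 4 Gy sample. Both probes had a called trend, of 1.21 (adjusted p = 0.01) and 1.62 (adjusted p = 0.00595) over 12 Gy. The 1 Gy value was -0.07 by the brighter probe (95% interval -0.65 to 0.50) and -0.17 by the dimmer one.

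Counted over genes, 0, 2, 3, 6 and 5 of the 10 were called from the lowest to the highest of the 5 doses in liver, all of them higher than in sham livers. The same rule called 0.0339%, 0.245%, 0.944%, 2.2% and 2.06% of all probes tested. At 1 Gy 4 of the 10 had an unadjusted p below 0.05, beside 7.08% of all probes. The median change over the 10 genes was 0.22, 0.80, 0.75, 1.09 and 1.03 on the log2 scale, beside 0.01 or less over all probes at each dose. Averaged over the 5 doses, 3 of 10 were called (0.73% of all probes), namely Saa1 with 3.62, Saa2 with 3.65 and Orm3 with 1.16. The trend called 3 of 10, namely Saa3, Orm3 and Lcn2 (2.02% of all probes). Between neighbouring doses no member was called. For 2 against 1 Gy, 4 against 2 Gy and 12 against 8 Gy the share of all probes called was 0.0% in liver, and for 8 against 4 Gy 0.00521%. At an unadjusted p below 0.05 the members numbered 6, 1, 0 and 1 over these 4 steps, beside 10.4%, 10.8%, 10.5% and 9.78% of all probes. With the slide as a fixed term, Saa1 and Saa2 were the 2 of 10 still called at any dose, and none was called by the trend. The share of all probes called in that fit is not given here, so this loss cannot be set against that of other probes.

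The other positive acute phase genes changed less. Of 20 such genes none was called at 1, 2 and 4 Gy and 1 was called at 8 and at 12 Gy, the protease inhibitor gene Serpina3n, with 1.36 (SE 0.15) and 1.64 (SE 0.15, adjusted p = 1.64e-05). The trend called 3 of the 20, Serpina3n and the metallothioneins Mt1 (1.13) and Mt2 (1.41). The median over the 20 genes was 0.07, 0.15, 0.28, 0.27 and 0.33 at 1 to 12 Gy. Hamp, which encodes the iron hormone hepcidin, differed by 0.92 at 1 Gy (SE 0.11, adjusted p = 0.0083) and by 0.87 to 0.96 at the higher doses, under the fold threshold at each. None of 7 negative acute phase genes, such as Alb and Ttr, was called at any dose, with medians between -0.08 and -0.02.

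Among 20 genes that carry the acute phase signal, 19 of them tested in liver, 1, 3 and 4 were called at 4, 8 and 12 Gy in liver and none at 1 and 2 Gy. Cebpd, a transcription factor of the C/EBP family, was higher by 1.69, 1.86 and 2.00 at 4, 8 and 12 Gy (SE 0.29, adjusted p = 0.00695, 0.00181 and 0.000838). The interleukin receptor genes Il1r1 and Il6ra rose by 1.53 and 1.21 at 12 Gy and Cebpb by 1.02, and all 3 also had a called trend. Il1b had a trend of -1.11 (adjusted p = 0.016). Of 6 receptors for member proteins, none was called in liver. All 15 hepatocyte markers stayed uncalled in liver. Their summed level varied between 3201510 and 3409800 intensity units over the 18 livers. Of 13 neutrophil markers 4 to 8 were well above background on any liver array, and Cxcr2 was above it on none of them. Camp, well above background on 9 of 18 liver arrays, was lower at 8 and 12 Gy (-1.26 and -1.04). The median change of the 12 neutrophil markers tested in liver was 0.20 and 0.15 at these doses. The summed level of the 8 macrophage markers was 49756 to 56122 in sham livers and 36077 to 37056 at 12 Gy, with none called. At 12 Gy 5 of the 8 had an adjusted p below 0.05 but stayed under the fold threshold, and the median change was -0.65. The part of these cell types in the results was not tested.

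In unirradiated lung the members were mostly far below their liver level. With the 36 arrays normalized together, 9 of 10 genes differed past both thresholds, against 34.8% of all probes. Liver was 155-fold above lung for Saa1, 309-fold for Saa2, 162-fold for Orm2, 78.2-fold for Orm1, 26.9-fold for Orm3 and 4.77-fold for Saa3. Saa2 was well above background on 2 of the 3 sham lung arrays, and Saa4 and Apcs on none. Liver was at least 592-fold higher for Saa4 and at least 349-fold higher for Apcs, where the lung level is taken as the higher of the measured value and the lowest signal well above background on that array. Lcn2 went the other way, 2.83-fold higher in lung (log2 difference 1.499, SE 0.20, adjusted p = 2.6e-07). This Lcn2 difference was 0.50 with scaling to the 75th percentile and 0.34 in the deposited processed values, neither called, and 0.63 with the slide as a fixed term (adjusted p = 0.279), and the dimmer Lcn2 probe gave 0.56 (adjusted p = 0.167). Hp differed by -0.74 and was under the fold threshold, but by -2.07 and -2.23 under the same 2 alternatives.

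Saa3 was called at 3 doses in lung. It was at 9.77, 10.33 and 9.53 in sham lungs and at 11.10, 12.21 and 12.48 at 1 Gy, on the same slide. At 2 Gy it was at 11.73, 13.07 and 12.17, at 4 Gy at 13.67, 10.92 and 12.46, at 8 Gy at 13.30, 12.15 and 11.63, and at 12 Gy at 12.49, 13.39 and 12.81. All 15 irradiated lungs lay above the sham lungs. The changes were 2.06, 2.44, 2.47, 2.48 and 3.02 (SE 0.60), and those at 4, 8 and 12 Gy were called (adjusted p = 0.0422, 0.0255 and 0.00307). Averaged over the doses the change was 2.50 (SE 0.46, adjusted p = 0.00485), or 5.64-fold. Its trend of 1.88 over 12 Gy (SE 0.63, adjusted p = 0.0307) was called, and neighbouring doses differed by 0.01 to 0.54, none called.

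The Saa3 calls in lung rested on few samples. The 4 Gy call was lost under 12 of the 18 fits that left out 1 sample, with changes of 1.81 to 2.70. The 8 Gy call was lost (2.01 to 2.59, adjusted p of 0.057 to 0.104) without sample 1 or 21 of the sham group or sample 5 or 15, and the trend (1.55 to 1.99, adjusted p of 0.0502 to 0.0867) without any one sham sample, sample 16 or sample 26. The averaged change was 2.32 with adjusted p = 0.0545 without sample 21 of the sham group, and 2.45 with adjusted p = 0.0692 with the slide as a random block. Without the 4 arrays of slide 5 it was 2.45 (adjusted p = 0.0193), while the trend was 2.21 (adjusted p = 0.14). The trend with the slide as a fixed term was 2.08 (adjusted p = 0.89). At 1 Gy, where slide and dose are not confounded, the change of 2.06 had adjusted p = 0.464.

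**Figure D2:**
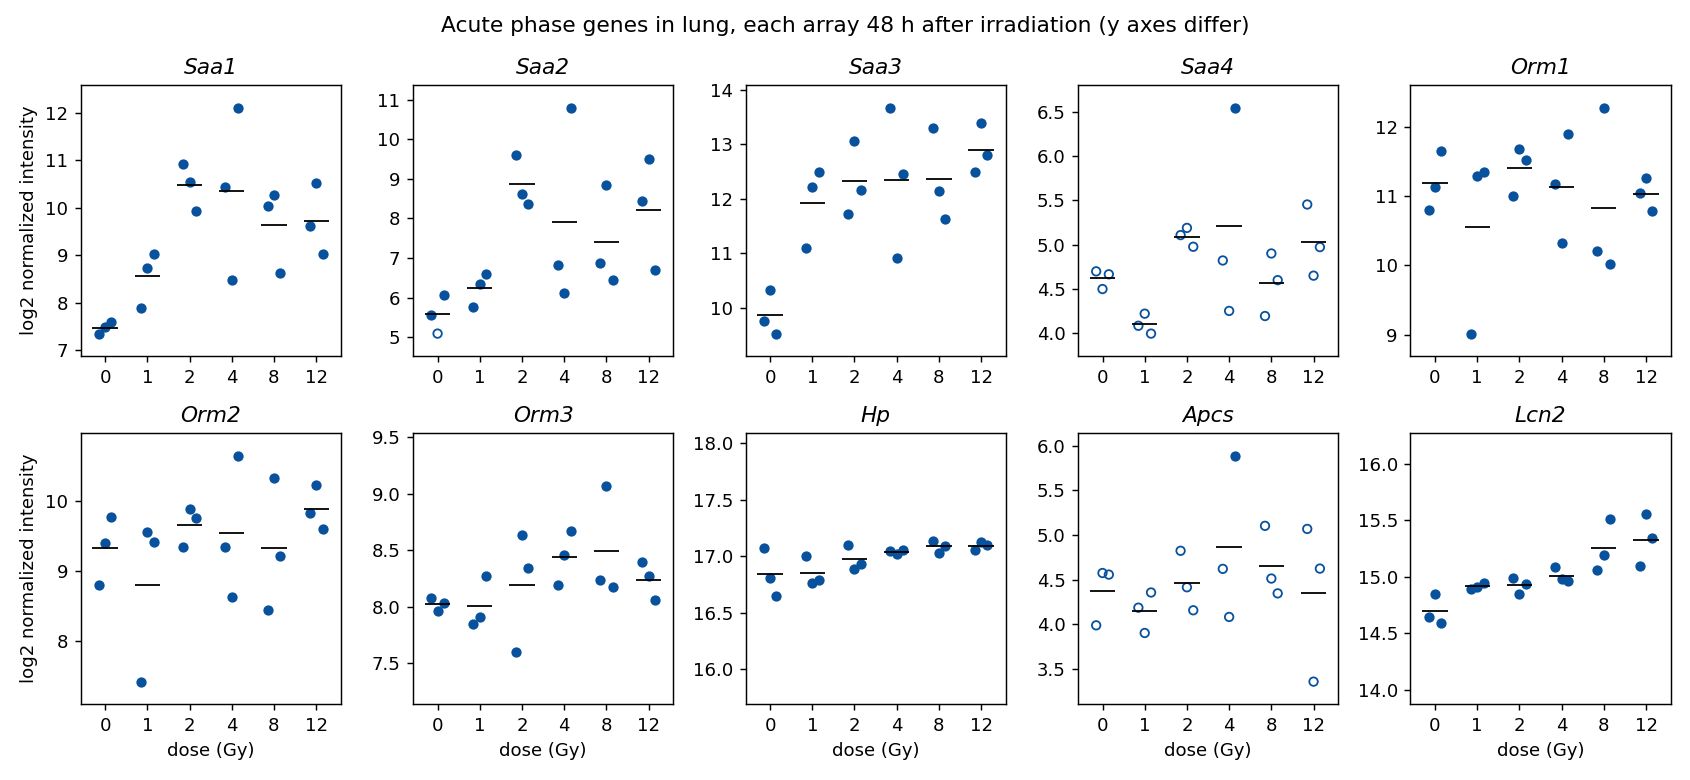
Log2 normalized intensity (y axis, scale differs between panels) of the same 10 genes in lung against dose in Gy (x axis). Points are the 3 samples per dose, open where the probe was not well above background, lines are means, and all irradiated lungs lie above the sham lungs for Saa1 and Saa3.

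Saa1 in lung was at 7.35, 7.49 and 7.59 in sham samples and at 7.90, 8.73 and 9.04 at 1 Gy. At 2 Gy it was at 10.92, 10.56 and 9.94, at 4 Gy at 10.44, 8.49 and 12.12, at 8 Gy at 10.05, 10.26 and 8.63, and at 12 Gy at 9.61, 10.52 and 9.02. All 15 irradiated lungs exceeded the sham lungs. The change was called at 4 Gy (2.87, SE 0.68, adjusted p = 0.0377) and 12 Gy (2.24, adjusted p = 0.0297) and averaged over doses (2.27, SE 0.53, adjusted p = 0.0225), and not at 2 Gy (3.00, adjusted p = 0.0736) or 8 Gy (2.17, adjusted p = 0.0967). Without sample 24 the 4 Gy change was 1.99 (adjusted p = 0.162), and leaving out any one of the sham samples ended the averaged call (2.21 to 2.33, adjusted p of 0.0836 to 0.103). The 12 Gy call was lost (1.84 to 2.30, adjusted p of 0.0547 to 0.122) without any one sham sample, sample 6 or sample 16, and the 4 Gy call under 11 of the 18 fits that left out 1 sample. The averaged change with the slide as a random block was 2.21 (adjusted p = 0.199), and without the 4 arrays of slide 5 it was 2.41 (adjusted p = 0.03). Saa2 was at 5.57, 5.09 and 6.07 in sham lungs and reached 9.61 and 10.80 in sample 3 of 2 Gy and sample 24 of 4 Gy, with changes of 0.66, 3.28, 2.33, 1.82 and 2.63 (SE 0.98) that were not called. Without sample 24, the 2 Gy and 12 Gy changes of Saa2 kept their size and were called (adjusted p = 0.0419 and 0.0135), and without sample 26 the 12 Gy change was 3.39 (adjusted p = 0.0392).

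Hepatocyte markers varied strongly between lung arrays, and several members varied with them. The marker list shared Hpx, Fgb and Fgg with the positive acute phase genes, and Alb, Ttr, Apoa1, Trf and Ahsg with the negative ones. The mean log2 level of the 15 markers was 7.15, 8.27 and 8.91 in sham lungs and 6.38 to 6.61 at 1 Gy, and was highest at 12.41 in sample 24 of the 4 Gy group. The 15 markers were summed to 28609 to 133197 intensity units in lung, against 3201510 or more in liver, with 10 to 15 of them well above background on an array. Trf was at 14.55 or more on every lung array, and Tat was called in lung at 4, 8 and 12 Gy (2.42, 2.21 and 2.57), so these 2 markers are not silent in lung. Sample 24 was also the only lung array on which Saa4 (6.55) and Apcs (5.89) were well above background.

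Over the 18 lung arrays, the mean hepatocyte marker level went with Saa4 (Pearson r = 0.85, permutation p = 4e-05, Spearman rho = 0.79, permutation p = 0.00017), which was well above background on sample 24 alone. It also went with Saa2 (Pearson r = 0.84, permutation p = 5e-05, Spearman rho = 0.68, permutation p = 0.00228), Orm2 (r = 0.77, permutation p = 0.00025, rho = 0.78, permutation p = 0.00017) and Orm1 (r = 0.63, permutation p = 0.00664, rho = 0.57, permutation p = 0.015). Without the 2 arrays farthest from the median these r were 0.81 for Saa4, 0.71 for Saa2, 0.69 for Orm2 and 0.62 for Orm1. For Saa1, r was 0.64 (permutation p = 0.00431, rho = 0.55, permutation p = 0.0188) and 0.41 without those arrays (permutation p = 0.12), so the relation rested on them. For Saa3, r was 0.13 (permutation p = 0.611, rho = 0.12, permutation p = 0.643). Of 14 relations computed, 6 passed the Benjamini-Hochberg adjustment, with adjusted p = 0.00035 for Saa4 and Saa2, 0.00117 for Orm2, 0.0186 for Orm1 and 0.0151 for Saa1. The permutation p are two-sided and unadjusted, and the permutations ran over all 18 arrays without regard to dose. The marker level was lowest on the 1 Gy arrays, so these r mix differences between doses with the spread within them.

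On the 6 irradiated lung arrays whose hepatocyte marker level was at or below the lowest sham array, Saa1 was at 7.90 to 10.05 and Saa3 at 10.92 to 13.30, all above the sham lungs. Saa2 was at 5.75 to 6.88 on these arrays, which overlapped its sham lungs (5.09 to 6.07). With the marker level as a covariate, chosen after seeing the data, the averaged change was 2.19 for Saa1 (SE 0.36, adjusted p = 0.00255), 1.99 for Saa2 (SE 0.28, adjusted p = 0.000686) and 2.50 for Saa3 (SE 0.48, adjusted p = 0.00718). In that fit Saa2 was called at 2, 4, 8 and 12 Gy with 2.50, 1.74, 1.96 and 1.79. Saa2 ran with these markers and was not called at any dose without the covariate, and the marker Tat itself changed with dose. These calls are therefore no separate support for a change of Saa2 in lung.

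**Figure D3:**
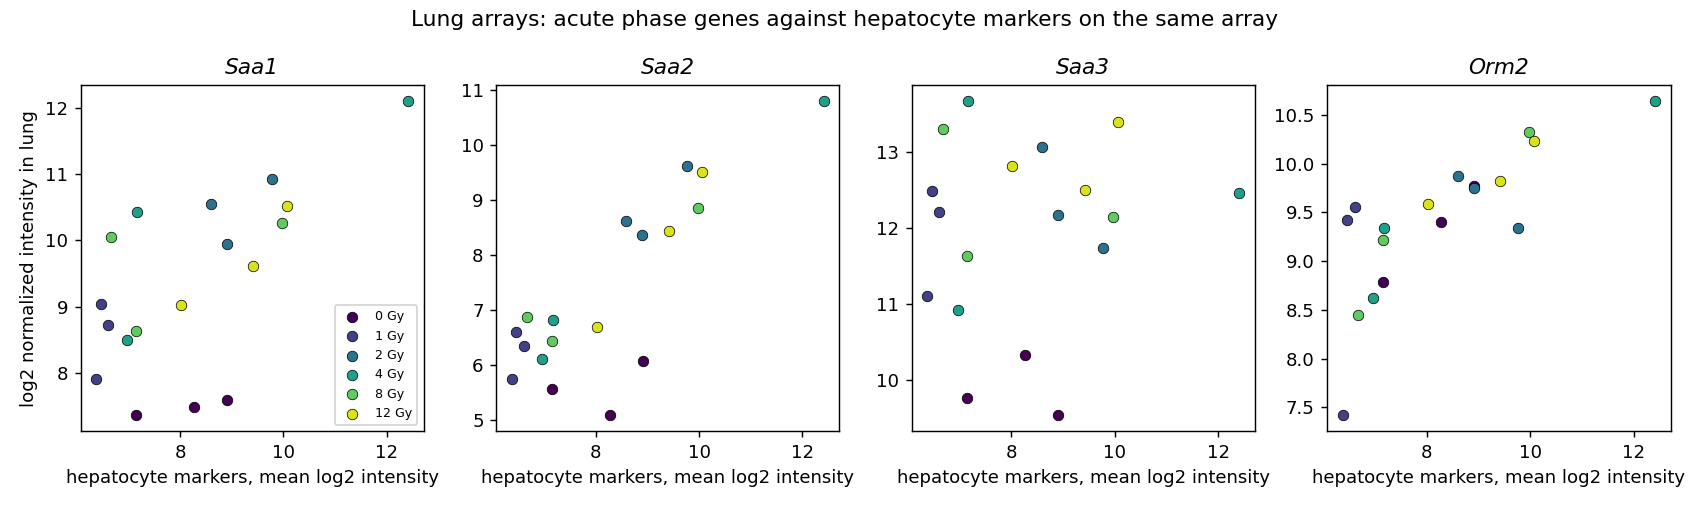
Log2 normalized intensity of Saa1, Saa2, Saa3 and Orm2 in lung (y axis) against the mean log2 intensity of 15 hepatocyte markers on the same array (x axis), 18 arrays coloured by dose. Saa2 and Orm2 run with the markers (r = 0.84 and 0.77), and Saa3 does not order by them (r = 0.13).

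The remaining members were not called in lung at any dose. Orm1, Orm2 and Orm3 changed by -0.65 to 0.56 in lung, with irradiated samples on both sides of the sham samples. Hp was at 16.64 to 17.14 in every lung, with changes of 0.01 to 0.25. Lcn2 was at 14.64, 14.85 and 14.59 in sham lungs and at 15.09, 15.55 and 15.34 at 12 Gy, and 14 of 15 irradiated lungs were above the sham lungs. Sample 25 of 8 Gy, on slide 5 with all 12 Gy lungs, was at 15.51, and the other 8 Gy lungs were at 15.06 and 15.19. The Lcn2 change was 0.56 at 8 Gy (SE 0.15, adjusted p = 0.0439) and 0.63 at 12 Gy (adjusted p = 0.0079) and its trend 0.58 (SE 0.12, adjusted p = 0.00122), all under the fold threshold. The dimmer Lcn2 probe went against it at 12 Gy, with -0.35 (adjusted p = 0.491), and had a trend of -0.65 (adjusted p = 0.118). That probe was flagged as an outlier on 1 lung array, sample 24, which its fit left out.

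Of the 10 genes, 0, 0, 2, 1 and 2 were called from the lowest to the highest dose in lung, beside 0.0227%, 0.446%, 1.46%, 2.51% and 7.29% of all probes. Averaged over doses 2 of 10 were called (1.53% of all probes), and the trend called 1 of 10 (7.02%). Between neighbouring doses none was called, beside 0.00227%, 0.0%, 0.0091% and 0.184% of all probes from 2 against 1 Gy to 12 against 8 Gy. At an unadjusted p below 0.05, the limma fit had 1 member at 1 Gy and 3 at 2 Gy in lung, beside 5.52% and 7.67% of all probes. Over the 4 steps it had 3, 0, 0 and 0 members, beside 6.27%, 5.13%, 4.77% and 19.7% of all probes. The median over the 10 genes at 12 Gy was 0.48, beside 0.09 over all probes.

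Other acute phase genes moved in lung at the high doses. Of the 20, 1, 3 and 5 were called at 4, 8 and 12 Gy. Their median change was 0.01, 0.47, 0.68, 0.37 and 0.98 at 1 to 12 Gy, and that of the 15 hepatocyte markers was -1.48, 1.05, 0.64, -0.38 and 1.39. Hpx, Fgb and Fgg belonged to both lists, so the 2 medians are not independent. The genes of the 20 called at 12 Gy were the complement genes C3 (1.19, SE 0.16) and C4b (1.47, SE 0.15), Fgl1 (1.63, SE 0.52), and the metallothioneins Mt1 and Mt2 (1.24 and 1.85). Serpina3n was called at 8 Gy with 1.48 (SE 0.28). Cebpd was the one signalling gene of 20 called at 4, 8 and 12 Gy, with 1.16, 1.40 and 1.16. Scarb1, a scavenger receptor that binds serum amyloid A, was lower at 8 and 12 Gy by -1.44 and -1.57 (adjusted p = 0.0484 and 0.0113). Neutrophil markers did not move one way in lung. At 12 Gy Mmp8 and Stfa2l1 were higher by 1.29 and 2.38, Camp was lower by -2.43, and the summed level of the 13 was 51350 to 64301 against 35520 to 51310 in sham lungs. The lung trend was -1.85 for Ngp, a neutrophil marker well above background on 7 of 18 lung arrays. It was -1.19 for the neutrophil marker Ly6g and 1.0005 for the macrophage marker Marco. The surfactant gene Sftpb, a lung epithelium marker, was lower at 12 Gy by -1.18 (adjusted p = 0.0413). The mean log2 level of the 7 lung epithelium markers was 16.43 to 16.47 at 12 Gy. On the same slide 5, sample 25 of 8 Gy was at 16.40, and the other 8 Gy lungs were at 16.97 and 16.98. Sham lungs were at 16.51 to 16.78. Slide and dose cannot be told apart for any of these 12 Gy changes. Lcn2 in lung had r = -0.32 with the mean level of the 13 neutrophil markers (permutation p = 0.2, rho = -0.34, permutation p = 0.169). Saa3 had r = 0.58 with that of the 8 macrophage markers (permutation p = 0.0122, Benjamini-Hochberg adjusted p = 0.0286 over the 14 relations, rho = 0.66, permutation p = 0.00353). Without the 2 arrays farthest from the median the r of Saa3 was 0.63. Sham lungs lie apart from irradiated lungs for Saa3, so its r mixes the difference between groups with the spread within them. The part of these cell types in the lung results was not tested.

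**Figure D4:**
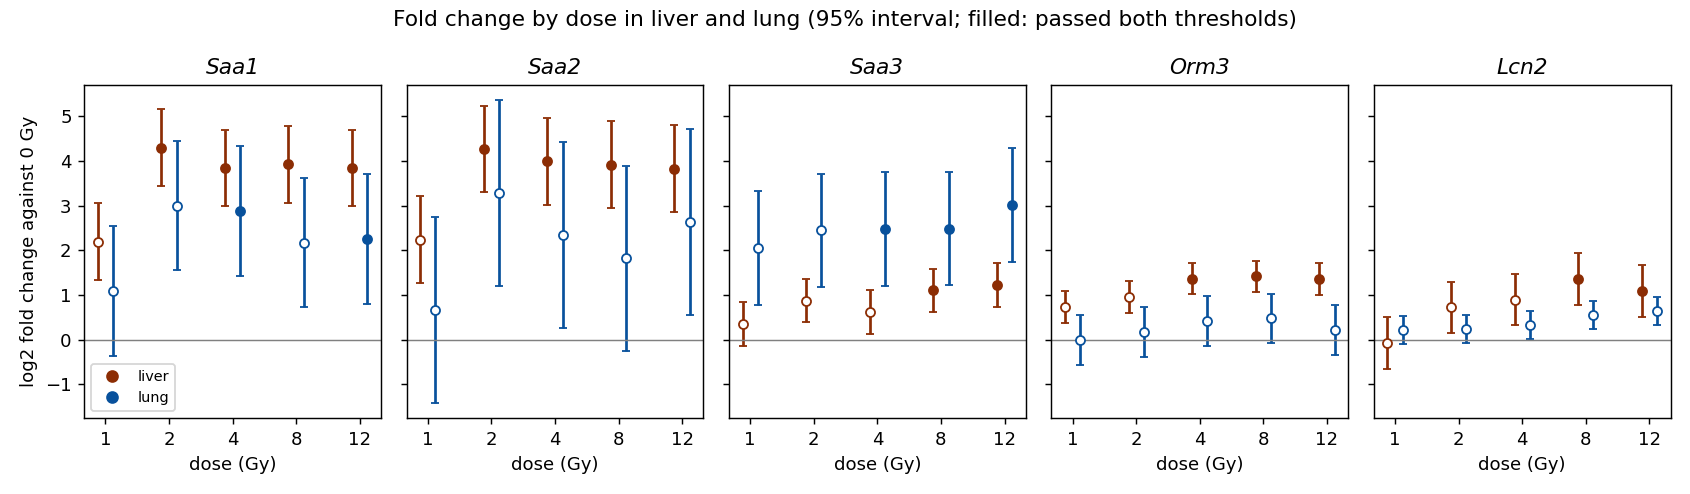
Log2 fold change against 0 Gy (y axis) by dose in Gy (x axis) for Saa1, Saa2, Saa3, Orm3 and Lcn2 in liver and lung. Bars are 95% intervals and filled points were called, and the liver value exceeds the lung value for Saa1, Saa2 and Orm3 at each dose and falls below it for Saa3.

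Whether the tissues differed in their response was tested as an interaction over the 36 arrays. None of the 10 genes was called for the averaged change, beside 0.5% of all probes, and 2 had an unadjusted p below 0.05, beside 10.2% of all probes. The lung change of Saa3 exceeded the liver change by 2.01 (SE 0.58, adjusted p = 0.122), and by 2.18 (adjusted p = 0.0346) without sample 14. Lung minus liver was -0.76 for Orm3 (SE 0.24, adjusted p = 0.184), -0.99 for Saa1 (SE 0.67, adjusted p = 0.686) and -1.53 for Saa2 (SE 0.86, adjusted p = 0.581). The trend called none of the 10 genes by their brighter probe (7.19% of all probes). The dimmer Lcn2 probe was called, with a lung trend below that of liver by -2.20 (SE 0.48, adjusted p = 0.00187), while the brighter one gave -0.60 (SE 0.28, adjusted p = 0.149). Among the listed genes, the trend was higher in lung for C3 (1.17), C4b (1.19) and Tat (2.23), and lower in lung for Il1rn (-1.73), Il1r1 (-1.51), Nfkbiz (-1.01), Scarb1 (-1.81), Ly6g (-1.45) and the surfactant gene Sftpa1 (-1.61). Slides followed the dose in both tissues, so slide and dose are mixed in these trends.

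Levels in liver and lung were set against each other over the 18 sample numbers, 10 relations in all. Hp in liver went with Hp in lung (r = 0.79, permutation p = 6e-05, rho = 0.73, permutation p = 0.00083) and 0.69 without the 2 samples farthest from the liver median. Lcn2 had r = 0.73 (permutation p = 0.00055, rho = 0.83, permutation p = 5e-05) and 0.86 without those samples. For Saa1 and Saa2 in liver, and Saa3 in lung, sham and irradiated samples formed separate clusters, so r was taken over the 15 irradiated samples. Saa3 had r = 0.35 there (permutation p = 0.208, rho = 0.20, permutation p = 0.475). It was 0.55 for Saa1 (permutation p = 0.0349, rho = 0.69, permutation p = 0.00604) and 0.56 for Saa2 (permutation p = 0.0217, rho = 0.78, permutation p = 0.00092). Without the 2 farthest samples these were 0.51 (permutation p = 0.0794) and 0.67 (permutation p = 0.0105). The Benjamini-Hochberg adjusted p was 0.0003 for Hp and 0.00183 for Lcn2 over 10 relations, and 0.0873 for Saa1 and 0.0723 for Saa2 over the 10 among irradiated samples. Among deviations from the dose means, r was 0.50 for Hp (permutation p = 0.0351), 0.37 for Lcn2 (permutation p = 0.126), 0.26 for Saa2, 0.17 for Saa3 and 0.13 for Saa1. None of these passed the Benjamini-Hochberg adjustment over 10 relations (0.351 for Hp), and for Hp r was 0.20 over the irradiated samples alone (permutation p = 0.47). The other members had r between -0.21 and 0.44 (permutation p of 0.067 or more).

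**Figure D5:**
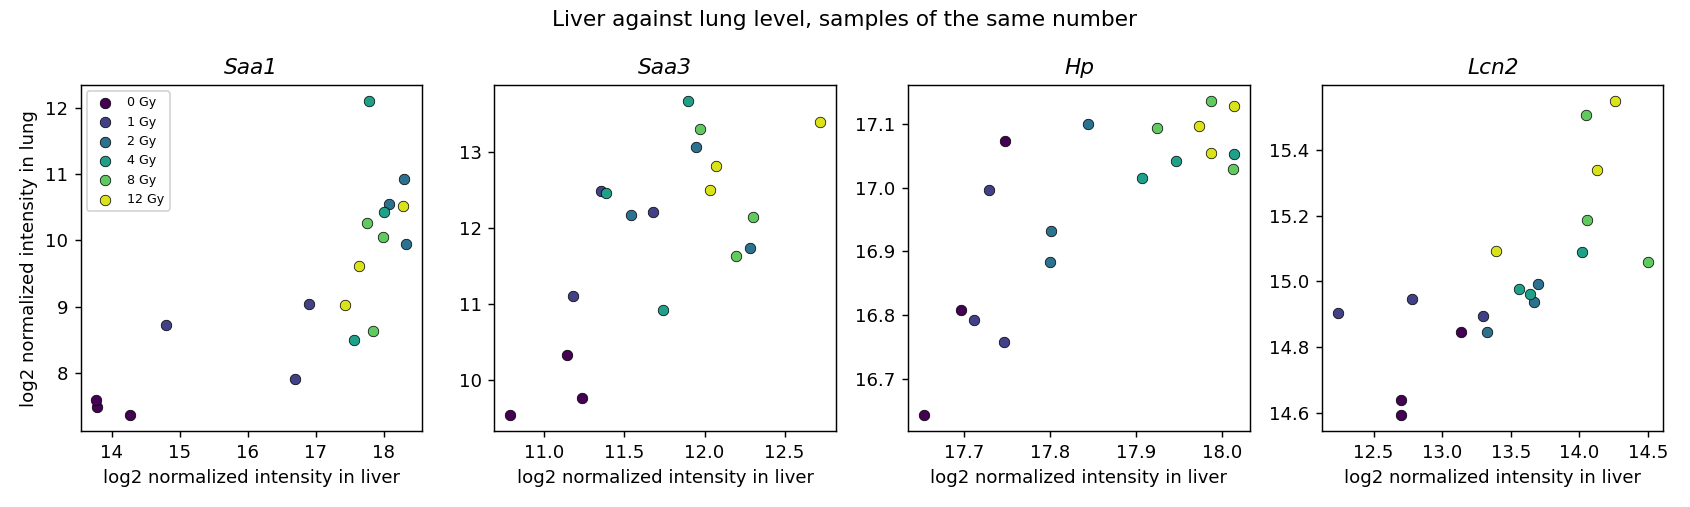
Log2 normalized intensity in lung (y axis) against liver (x axis) for Saa1, Saa3, Hp and Lcn2, 18 sample numbers coloured by dose. Hp and Lcn2 order together in the 2 tissues (r = 0.79 and 0.73), largely along dose.

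The genes outside the list whose level was most like that of a member were found by Pearson r over the 18 arrays of a tissue, as a description. For Saa1 in liver they were Cdhr2 (r = 0.95), Gm35472 (0.95), Tbata (0.93), Klf12 (0.93) and Dlk2 (0.92). For Lcn2 in liver they were AU040972 (0.90), Pmm1 (0.88), Pi4ka (0.87), Nipal1 (0.87) and Rhobtb1 (0.87). For Saa3 in lung they were Scn10a (0.88), the complement factor gene Cfb (0.85), the p53 target genes Rps27l (0.85) and Cdkn1a (0.82), and Slc35g1 (0.84). Averaged over doses, the log2 change in irradiated lung was 0.77 for Scn10a, 1.22 for Cfb, 0.57 for Rps27l, 0.47 for Slc35g1 and 3.14 for Cdkn1a. These genes were picked on the same arrays, where Saa3 sets irradiated lungs apart from sham lungs. Their changes are therefore no separate result.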

How the data were processed

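Total RNA from liver and lung was hybridised by the authors to one-colour Agilent mouse 8x60K arrays. The deposited files hold unnormalized spot intensities, per the file headers median signals of spots and their surroundings from Agilent Feature Extraction 11.5.1.1, and the authors also deposited a table of processed intensity values. Normexp background correction, quantile normalization and limma follow the methods of the study. The offset of 0, leaving out control and outlier spots, normalizing within each tissue (all 36 arrays together for comparisons of tissues) and averaging only the spots of a probe were chosen here, whereas the study averaged the probes of a transcript. A probe was tested if at least 0.5 of its spots were well above background on 1 or more arrays. Groups of 3 samples per dose were compared with limma 3.58.1 in R 4.3.3, with Benjamini-Hochberg adjustment over all probes tested. The number of arrays limits the precision.

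A trend is the slope over dose, per 12 Gy. RefSeq names gave 61.1% of probes 1 symbol, and probes with Ensembl names alone were not matched. The genes named are the 10 members, genes of the lists that were called or are needed beside a result, and the 5 genes most alike. Members and lists were chosen with earlier results of these data known. Correlations used 100000 permutations. The fit was tested on simulated data. Alternatives covered background correction, scaling, the processed signal, the deposited processed values, filters, probe averaging, slide, replicate block and leaving out each sample. The 36 miRNA arrays were not used here.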

Additional observations from a re-analysis of the deposited data

Results flagged for a closer look

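The dimmer Lcn2 probe, A_51_P510156, had a dose trend that differed between lung and liver by -2.20 on the log2 scale over 12 Gy (SE 0.48, adjusted p = 0.00187 in limma's interaction test). It was singled out because the same contrast had a different size in the 2 tissues by the test of the difference itself. The liver trend was 1.62 (adjusted p = 0.00595) and the lung trend -0.65 (adjusted p = 0.118). The brighter Lcn2 probe, A_55_P2070869, gave a difference of -0.60 (SE 0.28, adjusted p = 0.149), with trends of 1.21 in liver and 0.58 in lung. With the slide as a fixed term the difference by the dimmer probe was -0.60 (adjusted p = 0.98).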

How the results depend on the processing

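For 63 results called under at least 1 setting, 1847 values were recomputed. Of these 1689 kept direction and side of the threshold, 114 lost a call, 43 gained one and 1 reversed. For 212 results never called, the sign changed in 103 of 2441 alternatives and 126 of 3816 fits that left out 1 sample. The reversed one was the difference of the dimmer Lcn2 probe A_51_P510156 between unirradiated lung and liver, which was 0.56, and -0.39 with the slide as a fixed term. With the slide as a fixed term, members called fell from 6 to 2 for liver doses, from 3 to 0 for the liver trend and from 1 to 0 for the lung trend, and lung doses of 2 Gy or more could not be fitted. With the slide as a random block, members called in lung were 1 in place of 2 over doses, 0 in place of 2 averaged over doses and 0 for the trend. Without the slide scanned last, chosen after seeing the data, the lung trend called 0. With liver and lung fitted together, the liver trend called 1. Neighbouring doses in liver called 1 in place of 0 with a normexp offset of 50 and with probes well above background on at least 3 arrays, and the tissue difference of the trend called 1 in place of 0 with probes of a name averaged. Relations between liver and lung below 0.05 numbered 5, and 1 among deviations from dose means. The shares of all probes called under these settings are not given here, and the cause of these changes was not tested.

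Leaving out each sample in turn gave 0 to 2 members for neighbouring liver doses (2 without sample 12), 1 to 3 for the liver trend, 0 to 1 for the lung trend, 1 to 3 for lung doses, 0 to 2 for lung averaged over doses and 0 to 1 for the tissue difference averaged over doses. With the sample number as a replicate block across tissues, members called numbered 9 for unirradiated lung against liver, 0 for the tissue difference averaged over doses and 0 for that of the trend, as without it. Samples with the same number had deviations from their group means that correlated between -0.056 and 0.096 (median 0.0068, 0 of 18 pairs above 0.1), and 8 of 18 matched best with their own number among the 3 samples of their dose.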
